A study of Caenorhabditis elegans with 9 samples.

Results

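The nuclear hormone receptor genes of Caenorhabditis elegans were followed through sorted oocyte P-bodies, dissected oocytes and extracts of whole animals. They were taken as every gene whose name in the deposited transcript abundance table begins with nhr and a number, which gave 281 of the 46778 genes in the tables. Of these, 267 are annotated as protein coding and 14 as pseudogenes in the Ensembl annotation of the WBcel235 build. Each was joined by its gene identifier to the deposited raw counts.

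The 9 libraries came from female animals at day 3, labelled both L4 and oocyte arrest. In all 3 groups the strain was fog2 with GFP on car1 and RFP on pgl1, so the mutation and both fluorescent tags were shared. The labels name no allele or promoter for them. XX animals without fog-2 function lack self sperm, so that oocytes accumulate in the gonad. P-bodies, cytoplasmic granules of RNA and protein to which CAR-1 localises, were isolated by sorting, named FAPS in the labels (3 libraries). Oocytes were dissected (3 libraries), and whole animals were neither dissected nor sorted, so that they held somatic tissue together with the germline (3 libraries). The labels do not say whether replicates came from separate cultures or animals, so the p-values cover no more than the variation among these samples, and that variation may be technical.

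Nuclear hormone receptors are transcription factors with a zinc finger DNA-binding domain and a ligand-binding domain, through which small lipophilic molecules can switch them between repression and activation of their target genes. The worm family is far larger than the human one, and most members descend from an ancestor related to the vertebrate HNF4 receptor, while a small set has direct counterparts in insects and vertebrates. Known roles lie mostly in the soma, in moulting, fat and cholesterol metabolism, the response to toxins and developmental timing. An mRNA in an oocyte or a P-body can be a stored message for the embryo, and its level says nothing of the amount of receptor protein.

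Library totals ran from 27946955 to 78685226 counts. Ribosomal RNA genes held 29.8 to 38% of P-body counts, 86.8 to 88.8% of oocyte counts and 91.4 to 91.7% of whole-animal counts. Levels below are therefore in CPM, counts brought to a common library size, after scaling by trimmed mean of M values (TMM), which places the typical gene at the same level in each library. Scaling by library totals alone moved the median of all tested genes by 2.51 (log2) in P-bodies against oocytes, by 0.68 in oocytes against whole animals and by 3.19 in P-bodies against whole animals. Every direction below is relative to the typical gene, and the value with library totals alone is given where it turns the direction. All 16 oocyte and germline markers were present in every group, with summed levels of 4485 to 4767 CPM in P-body libraries, 3491 to 4063 CPM in oocyte libraries and 3091 to 3463 CPM in whole-animal libraries. The 14 intestinal markers in the tables summed to 354 to 620 CPM in P-body libraries, 646 to 2250 CPM in oocyte libraries and 13525 to 16958 CPM in whole-animal libraries, with none at 0 in any group. The 12 sperm markers summed to at most 0.337 CPM in P-body libraries, 0.697 CPM in oocyte libraries and 4.57 CPM in whole-animal libraries.

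Much of the family was at or near the limit of detection. A count in at least 1 library was recorded for 227 of the 281 genes, and 54 had none. Pooled over the 9 libraries, their absence allows up to 0.0167 CPM of the counts outside ribosomal RNA, for counting error only. Most of that pool is P-body counts. A whole-animal library held 4.63e+06 such counts on average and an oocyte library 5.63e+06, against 4.95e+07 for a P-body library. The limit is therefore higher within whole animals or oocytes taken alone. Of the 227, 107 passed the filter on low counts and were tested, which is 38.1% of the family, while 48.8% of all protein-coding genes passed. Among the 107, 33 passed only through their counts in P-bodies, the most deeply counted group outside ribosomal RNA, 4 only through whole animals and 0 only through oocytes. A group mean of at least 1 CPM was reached by 48 members and of at least 10 CPM by 7. The P-body libraries held counts for 153 to 182 members, the oocyte libraries for a median of 116 and at most 141, and the whole-animal libraries for 155 to 168.

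Chromosome V carries 174 of the 281 genes. Counts were recorded for 144 of these and 55 passed the filter, 31.6% of the members there, against 32.1% of all protein-coding genes on that chromosome. On the other chromosomes 52 of 107 members passed, 48.6%, against 54.4% of protein-coding genes. Chromosome IV held 21 tested members of 34, and chromosome I held 7 of 25.

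**Figure D1:**
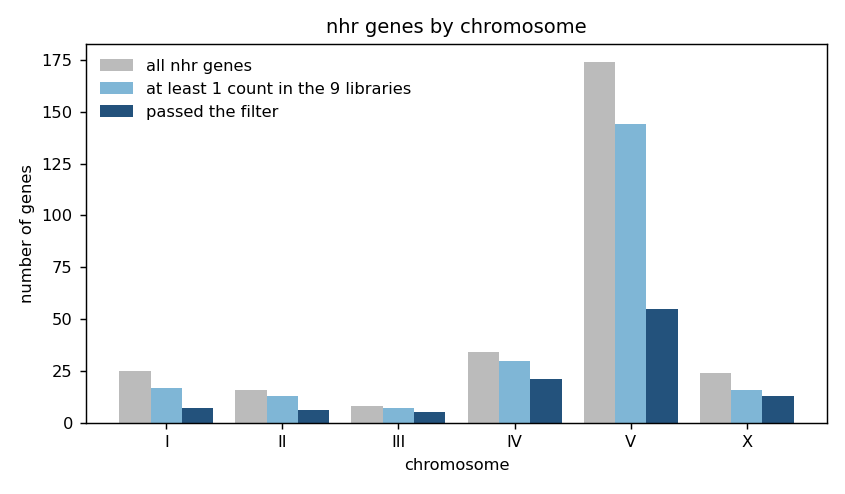
Number of nhr genes on each chromosome (bars, y axis in genes): all members, those with at least 1 count in the 9 libraries, and those that passed the filter on low counts. Chromosome V holds 174 members, of which 55 passed.

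Together the family took 0.170, 0.159 and 0.169% of the counts outside ribosomal RNA in P-bodies, against 0.0896, 0.0924 and 0.116% in oocytes and 0.102, 0.103 and 0.105% in whole animals. All 3 P-body libraries lay above all 6 others, and the oocyte libraries lay on both sides of the whole-animal libraries. On the scale of TPM, a transcript abundance that corrects for gene length, 71 to 75 members reached 1 TPM in the P-body libraries, 23 to 34 in the oocyte libraries and 27 to 28 in the whole-animal libraries. TPM keeps the ribosomal RNA in its denominator, so these TPM counts cannot be compared between groups apart from that share. The sums over the family leaned on few genes. Of the members' mean TPM, nhr-23, nhr-20, nhr-86 and nhr-66 held 14.3, 11.4, 10.8 and 9.88% in P-bodies. They held 7.95, 4.42, 9.05 and 8.94% in oocytes and 5.76, 3.31, 7.67 and 7.25% in whole animals. The sums do not show that most members were higher in P-bodies.

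Within P-bodies, the highest mean TPM belonged to nhr-23 at 174 ± 29.5 (SD, n = 3), an orthologue of the vertebrate ROR receptors that drives moulting. Next came nhr-20 at 137 ± 12.5 TPM, nhr-86 at 131 ± 10.4 TPM, nhr-66 at 120 ± 9.74 TPM, nhr-2 at 59.2 ± 2.13 TPM and nhr-49 at 47.2 ± 3.99 TPM. The range of nhr-23 lay above that of nhr-20, the ranges of nhr-20, nhr-86 and nhr-66 overlapped from one to the next, and nhr-2 and then nhr-49 lay clear below. Within oocytes the leading genes were nhr-49 at 13.9 ± 1.93 TPM, nhr-86 at 13.7 ± 3.34 TPM, nhr-66 at 13.5 ± 2.33 TPM and nhr-23 at 12 ± 1.8 TPM, whose ranges overlapped. Whole animals led with nhr-49 at 9.76 ± 0.524 TPM, nhr-86 at 9.09 ± 1.62 TPM, nhr-66 at 8.6 ± 0.801 TPM and nhr-274 at 7.03 ± 1.04 TPM, with ranges that overlapped from each gene to the next. The 8 leading genes were the same in oocytes and whole animals (nhr-20, nhr-23, nhr-46, nhr-49, nhr-66, nhr-71, nhr-86 and nhr-274). In P-bodies nhr-2 stood among the first 8 in place of nhr-71.

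**Figure D2:**
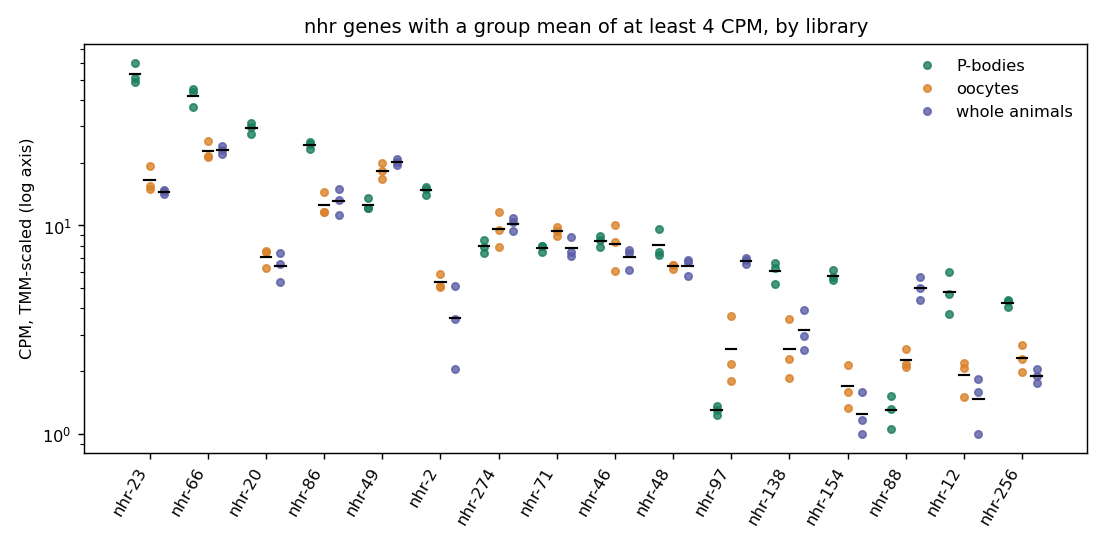
Level of each nhr gene with a group mean of at least 4 CPM, in CPM after TMM scaling on a log axis. Each point is 1 library and each black line the mean of 3, with P-bodies left, oocytes in the middle and whole animals right. The P-body libraries of nhr-23, nhr-66, nhr-20, nhr-86 and nhr-2 lie above all 6 others, and those of nhr-49, nhr-97 and nhr-88 below them.

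In P-bodies against oocytes, 17 of the 107 tested members rose and 8 fell at an adjusted p under 0.05 in edgeR's quasi-likelihood test. Over all 10162 tested genes, 26.7% were called higher in P-bodies and 28.8% lower, so that the members changed in either direction (25 of 107) were fewer in proportion than the 55.5% of all genes. Fold changes below are on the log2 scale, and a value after ± beside one is its standard error (SE). The median log2 fold change of the tested members was 0.46, and that of all genes was -0.06. Since 33 of the 107 passed the filter only through P-bodies and 0 only through oocytes, the members' median is partly set by the filter. Under library totals alone, 95 members were higher and 0 lower, where 79.6% of all genes were higher and 3.35% lower. With totals that leave out ribosomal RNA, 17 rose and 8 fell among 76 members tested, beside 30.0 and 30.7% of all genes. Leaving out the oocytes 3 library raised the number of members called higher to 29, while 25.3% of all genes tested there were called higher.

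**Figure D3:**
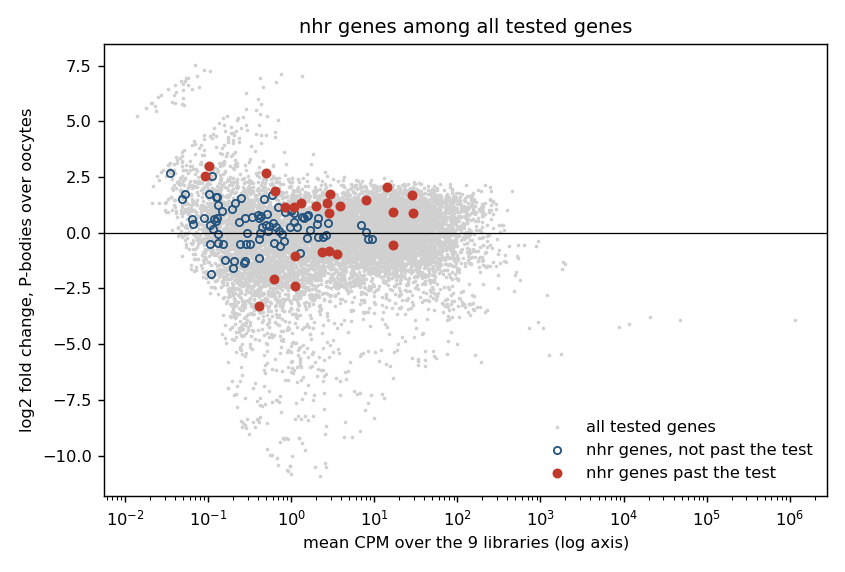
Log2 fold change of P-bodies over oocytes (y axis) against the mean level over the 9 libraries (x axis, CPM on a log axis) for every tested gene, with the 107 tested nhr genes marked. The 17 members that rose and the 8 that fell lie within the spread of all genes.

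nhr-23 had 48.7, 60.4 and 50.8 CPM in P-bodies, 19.4, 15.5 and 14.9 CPM in oocytes, and 14.9, 14.6 and 14.2 CPM in whole animals. All P-body libraries stood above the other 6, and the oocyte libraries were slightly above the whole-animal libraries. Against oocytes it rose in P-bodies (log2 fold change 1.69 ± 0.12, adjusted p = 2.05e-07), and it rose likewise against whole animals (log2 fold change 1.87 ± 0.13, adjusted p = 7.83e-08). The gene lies on chromosome I, 7214745 to 7221781 (WBcel235, as are all positions below).

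nhr-2, which is expressed in the early embryo and needed for embryogenesis, had 15, 14.1 and 15.2 CPM in P-bodies, 5.14, 5.08 and 5.82 CPM in oocytes, and 2.05, 3.56 and 5.14 CPM in whole animals. Its P-body libraries were again the highest, and the whole-animal libraries spread over a wider range than the others. It rose in P-bodies against oocytes (log2 fold change 1.46 ± 0.23, adjusted p = 1.72e-04) and against whole animals (log2 fold change 2.02 ± 0.24, adjusted p = 1.20e-05), and it lies on chromosome I, 5818477 to 5821134.

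The largest fold change against oocytes among called members that averaged at least 2 CPM in the higher group was that of nhr-20. Its levels were 27.4, 29.5 and 31 CPM in P-bodies, 7.43, 6.27 and 7.58 CPM in oocytes, and 5.33, 7.39 and 6.53 CPM in whole animals. The 3 P-body libraries were far above the other 6, which overlapped one another. The rise was 2.04 ± 0.13 (log2, SE; adjusted p = 9.42e-08) over oocytes and 2.19 ± 0.14 (adjusted p = 4.83e-08) over whole animals. nhr-20 lies on chromosome III, 4230436 to 4233219 and its exons overlap those of F43C1.5 on the other strand, whose means were 0.124 CPM in P-bodies, 0.0329 CPM in oocytes and 0.202 CPM in whole-animal extracts.

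Among abundant receptors with metabolic or defence roles, nhr-66 and nhr-86 rose. nhr-66, which acts with NHR-49 in lipid metabolism, had 43.6, 37.1 and 45 CPM in P-bodies, 21.3, 21.6 and 25.4 CPM in oocytes, and 24.1, 23.1 and 21.9 CPM in whole animals. nhr-86, a sensor of a bacterial metabolite that activates intestinal defence genes, had 23.3, 25.1 and 24.5 CPM in P-bodies, 11.6, 11.6 and 14.5 CPM in oocytes, and 15, 11.2 and 13.3 CPM in whole animals. For both, the P-body libraries lay above all others, and the oocyte and whole-animal libraries overlapped. Over oocytes nhr-66 rose by 0.88 ± 0.11 (adjusted p = 2.07e-05) and nhr-86 by 0.94 ± 0.13 (adjusted p = 4.31e-05), on the log2 scale. nhr-66 lies on chromosome IV, 8226337 to 8236602, and the counts of serp-1.2, which overlaps it on the other strand, averaged 4.36 CPM in P-bodies, 1.58 CPM in oocytes and 1.93 CPM in whole animals. nhr-86 lies on chromosome V, 2061111 to 2066844 and overlaps comt-3 on the other strand, which averaged 0.0681 CPM in P-bodies, 0.140 CPM in oocytes and 0.675 CPM in whole animals. The strand setting of the counting is not given in the sources used here, so reads of such overlapping genes cannot be told apart, and these values are uncertain to that extent.

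No role is given here for nhr-154, nhr-12, nhr-256 and nhr-138. nhr-154 had 5.5, 5.66 and 6.08 CPM in P-bodies, 1.34, 1.59 and 2.15 CPM in oocytes, and 1, 1.17 and 1.59 CPM in whole animals, a rise of 1.74 ± 0.24 (log2, SE) over oocytes with an adjusted p of 4.95e-05. nhr-12 had 4.71, 3.74 and 5.96 CPM in P-bodies, 1.51, 2.19 and 2.07 CPM in oocytes, and 1, 1.83 and 1.59 CPM in whole animals. Its rise over oocytes was 1.32 ± 0.27 (adjusted p = 0.00123). In both genes every P-body library was above every other library. nhr-256 had 4.38, 4.35 and 4.06 CPM in P-bodies, 2.29, 1.99 and 2.66 CPM in oocytes, and 2.05, 1.89 and 1.76 CPM in whole animals, and it rose by 0.87 ± 0.20 over oocytes (adjusted p = 0.00274). nhr-138 had 6.28, 5.22 and 6.61 CPM in P-bodies, 1.86, 2.29 and 3.55 CPM in oocytes, and 3.95, 2.95 and 2.52 CPM in whole animals. It rose by 1.21 ± 0.25 over oocytes (adjusted p = 0.00136), and it is uncertain because it overlaps C28D4.18 on the same strand. The lowest P-body library of nhr-256 and of nhr-138 exceeded the highest of the other 6. nhr-40, which is needed for muscle and embryonic development, overlaps T03G6.7 on the same strand and had 2.75, 3.02 and 2.99 CPM in P-bodies, 1.21, 1.19 and 1.36 CPM in oocytes, and 1.33, 1.89 and 2.04 CPM in whole animals. Its P-body libraries were the highest, and the rise was 1.21 ± 0.25 over oocytes (adjusted p = 0.00133) and 0.73 ± 0.25 over whole animals (adjusted p = 0.0202), the second of which missed the threshold with P-bodies 2, P-bodies 3 or whole animals 1 left out (highest adjusted p = 0.0714).

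The remaining 7 members that rose over oocytes averaged under 2 CPM in P-bodies, and all but nhr-62 were picked out after their values were seen, to complete the count. nhr-7 and nhr-105 stayed past the threshold with any 1 library left out, at log2 fold changes of 2.68 ± 0.71 and 1.33 ± 0.35. nhr-7 had 1.04, 1.14 and 0.88 CPM in P-bodies, against 0, 0.149 and 0.276 CPM in oocytes. It reached the filter on low counts in 3 P-body libraries, 1 oocyte library and 1 whole-animal library. It thus passed through P-bodies, the group in which it was called higher. nhr-62, which is required for the longer life of worms on a restricted diet, had 0.95, 1.09 and 1.36 CPM in P-bodies, against 0.475, 0.398 and 0.612 CPM in oocytes. Its rise (log2 fold change 1.17 ± 0.41, adjusted p = 0.0277) was lost without P-bodies 2 or P-bodies 3 (highest adjusted p = 0.121). nhr-95 (log2 fold change 1.15 ± 0.36, adjusted p = 0.0154) lost its call without P-bodies 3 (adjusted p = 0.0642). nhr-3 (log2 fold change 1.89 ± 0.66, adjusted p = 0.0269) lost it without P-bodies 2, P-bodies 3 or oocytes 1 (highest adjusted p = 0.062). nhr-3 reached the filter on low counts in 3 P-body libraries, 1 oocyte library and 2 whole-animal libraries. Only P-bodies, where it was called higher, thus had all libraries above the filter.

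nhr-206 and nhr-207 completed the set. They lie in a stretch with nhr-154 and other members, with nhr-206 on chromosome V, 12092006 to 12093862, nhr-207 on chromosome V, 12096234 to 12097845 and nhr-154 on chromosome V, 12101293 to 12103286. nhr-208, between nhr-206 and nhr-207, was not tested, and nhr-209, between nhr-207 and nhr-154, did not pass (log2 fold change 0.62 ± 0.88, adjusted p = 0.575). nhr-206 had 72, 78 and 48 counts in P-bodies, against 0, 0 and 3 counts in oocytes. nhr-207 had 47, 56 and 50 counts in P-bodies, against 1, 0 and 2 counts in oocytes. The P-body libraries were higher in both genes without overlap, on few counts. Both genes passed the filter on low counts only through P-bodies, the group in which they were called higher. The log2 fold changes were 2.99 ± 0.99 (adjusted p = 0.0219) and 2.53 ± 0.97 (adjusted p = 0.0412). That of nhr-206 missed the threshold without P-bodies 1 or oocytes 1 (highest adjusted p = 0.0573), and that of nhr-207 without any 1 of the 6 libraries (highest adjusted p = 0.092), in DESeq2 (adjusted p = 0.0693) and with no filter (adjusted p = 0.0563). Beyond nhr-154 come nhr-153, which was not tested, and nhr-136 on chromosome V, 12107142 to 12109201, which did not pass (log2 fold change -0.06 ± 0.86, adjusted p = 0.963). Such neighbouring receptor genes can be close copies, and how the counting treated reads that fit more than 1 of them is not given in the sources used here.

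**Figure D4:**
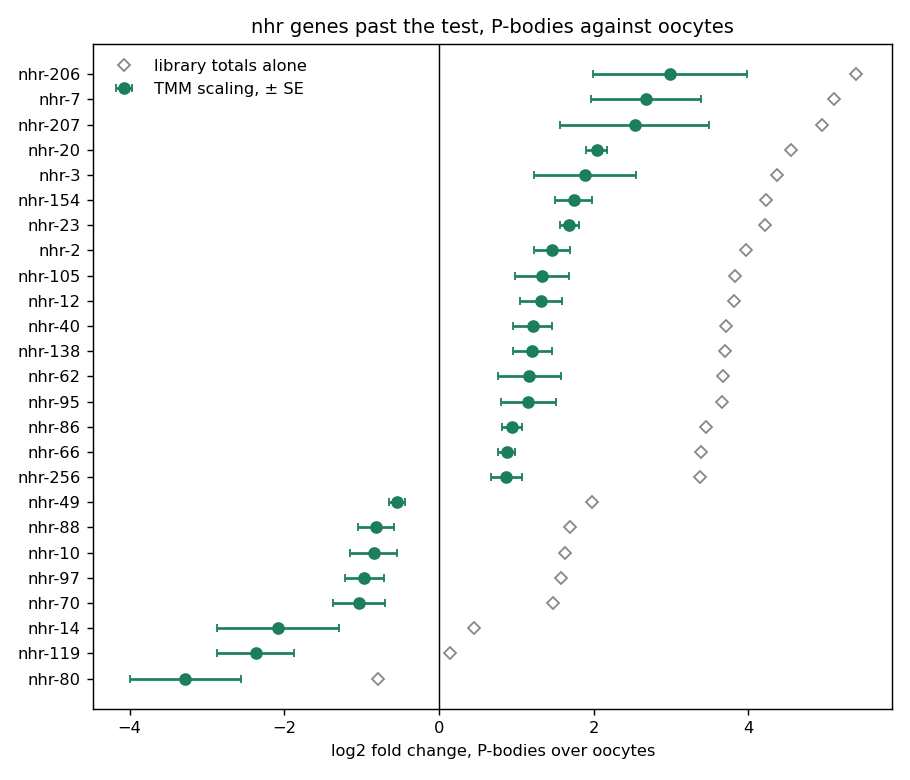
Log2 fold change of P-bodies over oocytes (x axis) for the 25 nhr genes past the test, 1 per row. Filled points are values with TMM scaling and bars are ± SE, and open diamonds are values with library totals alone. Scaled by library totals alone, 24 of the 25 lie above 0 and nhr-80 lies below it.

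The members that fell in P-bodies against oocytes included known regulators of metabolism. nhr-80, which activates fatty acid desaturase genes, had 0.0186, 0.0434 and 0.0113 CPM in P-bodies, 0.389, 0.199 and 0.178 CPM in oocytes, and 0.857, 0.834 and 1.17 CPM in whole animals. Its P-body libraries were the lowest and its whole-animal libraries the highest, without overlap between any groups. The fall was -3.28 ± 0.72 against oocytes (log2, SE; adjusted p = 0.0018) and -5.22 ± 0.73 against whole animals (adjusted p = 3.98e-05), and it stayed negative with library totals alone (-0.78 and -2.07). The call of nhr-80 against oocytes was lost with library totals alone (adjusted p = 0.355). nhr-80 lies on chromosome III, 12170 to 14869. In raw counts it rested on 5, 13 and 3 in P-bodies, against 9, 4 and 9 in oocytes and 18, 15 and 34 in whole animals.

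nhr-49, an HNF4-like regulator of fat oxidation and desaturation whose role resembles that of PPAR alpha, was among the most abundant members throughout. It had 12.1, 12.1 and 13.5 CPM in P-bodies, 19.9, 16.7 and 18.3 CPM in oocytes, and 20.1, 20.7 and 19.6 CPM in whole animals. The P-body libraries were the lowest without overlap, and the oocyte and whole-animal libraries overlapped. It fell in P-bodies against oocytes (log2 fold change -0.54 ± 0.10, adjusted p = 6.76e-04), but was higher at 1.98 with library totals alone. With no filter on low counts its fold change was -0.32, and the call was lost (adjusted p = 0.0739). The gene lies on chromosome I, 9869632 to 9874676. Its partner nhr-66 moved the other way in the same comparison, as given above.

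nhr-10, which switches on the propionate shunt together with nhr-68, had 1.49, 1.4 and 1.65 CPM in P-bodies, 1.77, 3.88 and 2.55 CPM in oocytes, and 1.95, 2.95 and 3.35 CPM in whole animals. Its P-body libraries lay just below the lowest oocyte library. The fall (log2 fold change -0.85 ± 0.31, adjusted p = 0.0324) missed the threshold without P-bodies 1, P-bodies 2, P-bodies 3, oocytes 2 or oocytes 3 (highest adjusted p = 0.241) and with no filter (adjusted p = 0.144), and it was 1.63 with library totals alone. nhr-14, which limits iron uptake in the intestine, had 6, 28 and 6 counts in P-bodies, against 8, 1 and 10 counts in oocytes. Those groups overlapped in CPM, and the fall (log2 fold change -2.08 ± 0.79, adjusted p = 0.0389) missed the threshold without P-bodies 1, P-bodies 3, oocytes 1 or oocytes 3 (highest adjusted p = 0.157) and was 0.45 with library totals alone.

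4 less studied members completed the set that fell. nhr-97 had 1.23, 1.3 and 1.36 CPM in P-bodies, 3.67, 1.79 and 2.17 CPM in oocytes, and 6.85, 6.5 and 7.01 CPM in whole animals. nhr-88 had 1.52, 1.06 and 1.32 CPM in P-bodies, 2.16, 2.09 and 2.57 CPM in oocytes, and 5.66, 4.39 and 5.01 CPM in whole animals. In both genes the 3 groups were separate, with P-bodies lowest and whole animals highest. Against oocytes nhr-97 fell by 0.96 ± 0.25 on the log2 scale (adjusted p = 0.00521) and nhr-88 fell by 0.82 ± 0.23 (adjusted p = 0.00873). nhr-119 had 0.201, 0.17 and 0.196 CPM in P-bodies, 0.864, 0.348 and 1.64 CPM in oocytes, and 2.52, 2.28 and 1.73 CPM in whole animals, also in 3 separate groups with the lowest in P-bodies, at log2 fold change -2.37 ± 0.50, adjusted p = 0.00135 against oocytes. nhr-70 had 0.652, 0.681 and 0.502 CPM in P-bodies, against 1.25, 1.24 and 1.26 CPM in oocytes. Its P-body libraries lay below all oocyte libraries, and its fall (log2 fold change -1.03 ± 0.34, adjusted p = 0.0195) missed the threshold without P-bodies 1 or P-bodies 3 (highest adjusted p = 0.0939). With no filter the calls of nhr-88 (-0.59, adjusted p = 0.134) and nhr-70 (-0.81, adjusted p = 0.197) were lost. Y69H2.1, which overlaps nhr-70 on the other strand, averaged 0.00779 CPM in P-bodies and 0 in oocytes, and which gene the shared reads were given to is not known. By library totals alone, nhr-97, nhr-88, nhr-119 and nhr-70 stood at 1.58, 1.69, 0.15 and 1.47.

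Markers of other tissues differed in the same comparison, in which 26.7% of all tested genes were higher and 28.8% lower. Of the 14 intestinal markers tested, 7 fell and 0 rose in P-bodies against oocytes, and their summed level was the lower one in all P-body libraries (given above). All 4 tested markers of the gonadal sheath and spermatheca fell, of 6 in the list, with summed levels of 0.540 to 0.678 CPM in P-bodies, against 11.6 to 20.4 CPM in oocytes, and sth-1 at 0 in P-bodies. Of the 11 muscle markers, 9 fell and 0 rose, with summed levels of 14.7 to 19.1 CPM in P-bodies, against 68.7 to 227 CPM in oocytes, and none at 0. The 13 neuronal markers summed to 39.4 to 48.5 CPM in P-bodies, against 23.6 to 32.8 CPM in oocytes, where rab-3 and unc-47 were at 0. Of the 8 tested, 1 rose (unc-119) and 0 fell. The 12 hypodermal markers summed to 45.7 to 51.8 CPM in P-bodies, against 24.2 to 34 CPM in oocytes, where dpy-7, dpy-13, sqt-1, col-12 and bli-2 were at 0. Of the 5 tested, lin-26 rose and col-19 fell, and lin-26 alone had 45 to 51.4 CPM in P-bodies, against 23.4 to 28.4 CPM in oocytes. With library totals alone 5 intestinal, 0 sheath and 2 muscle markers were higher in P-bodies and 0, 2 and 3 lower. Over all genes that scaling called 79.6% higher and 3.35% lower. The part of these tissues in the rises and falls of the nhr genes was not tested.

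Several well expressed members did not pass in P-bodies against oocytes. nhr-46 had 8.93, 7.88 and 8.53 CPM in P-bodies, 8.34, 6.02 and 10.01 CPM in oocytes, and 6.14, 7.62 and 7.35 CPM in whole animals, and its P-body libraries lay inside the range of the oocyte libraries (log2 fold change 0.05 ± 0.18, adjusted p = 0.845). nhr-48, a relative of the vitamin D receptor, had 7.21, 9.57 and 7.45 CPM in P-bodies, 6.44, 6.47 and 6.18 CPM in oocytes, and 6.81, 6.67 and 5.73 CPM in whole animals, where the P-body libraries were all higher than the oocyte libraries but the difference missed the threshold (log2 fold change 0.35 ± 0.15, adjusted p = 0.0725). nhr-71 stood at -0.27 ± 0.13 (adjusted p = 0.0935), nhr-274 at -0.29 ± 0.15 (adjusted p = 0.114) and nhr-13, which shares desaturase targets with nhr-80, at -0.18 ± 0.30 (adjusted p = 0.64). A miss of the threshold does not show equal levels, and with 3 libraries a group the standard errors of the 107 tested members set how small a change could be called.

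In oocytes against whole animals, 0 of the 107 tested members rose and 6 fell in edgeR's quasi-likelihood test, beside 0.709% of all tested genes higher, 12.5% lower and 13.2% either way. At an unadjusted p under 0.05, 3 members were higher and 26 lower, and DESeq2 at an adjusted p under 0.05 called 0 higher and 14 lower. Over all genes, 6.06% were higher and 19.6% lower at that unadjusted p, and DESeq2 called 3.58% higher and 15.1% lower. The median log2 fold change of the tested members was -0.60, and that of all genes was 0.00. The filter let in 4 of the 107 only through whole animals, 33 only through P-bodies and 0 only through oocytes. The members' median thus depends in part on the filter here too. Under library totals alone, 22 members were higher and 7 lower, beside 51.9 and 11.8% of all genes, and with totals that leave out ribosomal RNA 2 were higher and 7 lower of 76, beside 12 and 13.8%. Leaving out oocytes 3 gave 10 members lower, whole animals 2 gave 3, and whole animals 3 gave 2 lower and 1 higher. In such bulk extracts, fewer cells of a type and less RNA per cell cannot be told apart.

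The 6 were nhr-14, nhr-68, nhr-69, nhr-88, nhr-97 and nhr-130, and their fold changes stayed below 0 with library totals alone. With that scaling nhr-69 and nhr-88 were not called (adjusted p = 0.0561 and 0.172). nhr-97 fell by 1.42 ± 0.25 (log2, SE; adjusted p = 0.00262) and nhr-88 fell by 1.14 ± 0.23 (adjusted p = 0.00629), and both calls held with any 1 library left out. nhr-97 lies on chromosome IV, 9757648 to 9764494 and nhr-88 on chromosome II, 2976639 to 2987023. nhr-14 had 0.346, 0.0498 and 0.197 CPM in oocytes, against 2.14, 1 and 1.66 CPM in whole animals. nhr-68 had 0.173, 0.0498 and 0.178 CPM in oocytes, against 0.762, 0.5 and 0.932 CPM in whole animals. Neither gene's groups overlapped, with all oocyte libraries lower. nhr-14 fell (log2 fold change -2.99 ± 0.77, adjusted p = 0.0216) but not without oocytes 3, whole animals 1 or whole animals 3 (highest adjusted p = 0.0856). Only whole animals, where it was higher, had all its libraries above the filter on low counts. nhr-68 fell (log2 fold change -2.39 ± 0.67, adjusted p = 0.034) but not without oocytes 2, oocytes 3 or any 1 whole-animal library (highest adjusted p = 0.123), nor with no filter (adjusted p = 0.066).

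nhr-69 and nhr-130 were low throughout. nhr-69 had 0.302, 0.398 and 0.493 CPM in oocytes, against 1.24, 1.61 and 1.21 CPM in whole animals (log2 fold change -1.73 ± 0.45, adjusted p = 0.0225), and lost its call without whole animals 2 or whole animals 3 (highest adjusted p = 0.0828) and with only those groups fitted (adjusted p = 0.0512). It overlaps inx-20 on the other strand and is uncertain for that reason. inx-20 was at 0 in oocytes and averaged 0.0556 CPM in whole animals. nhr-130 had 0, 0.0995 and 0.138 CPM in oocytes, against 0.666, 0.5 and 0.656 CPM in whole animals (log2 fold change -2.79 ± 0.84, adjusted p = 0.0459), and lost its call without any 1 of the 6 libraries (highest adjusted p = 0.121). In both, every whole-animal library exceeded every oocyte library. Of the 14 tested intestinal markers 11 fell in the same comparison, as did 6 of 11 muscle markers and 5 of 8 tested neuronal markers, with 0 rising in any of these lists. Over all tested genes 0.709% were higher and 12.5% lower. Of 4 tested sheath and spermatheca markers and 5 tested hypodermal markers, 0 rose and 0 fell. The sheath and spermatheca markers summed to 11.6 to 20.4 CPM in oocytes, against 9.57 to 14.4 CPM in whole animals. The hypodermal markers summed to 24.2 to 34 CPM in oocytes, against 42.3 to 58.4 CPM in whole animals. The 13 neuronal markers summed to 23.6 to 32.8 CPM in oocytes, against 36.3 to 41.6 CPM in whole animals, with rab-3 and unc-47 at 0 in oocytes. The part of these tissues in the nhr values was not tested.

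**Figure D5:**
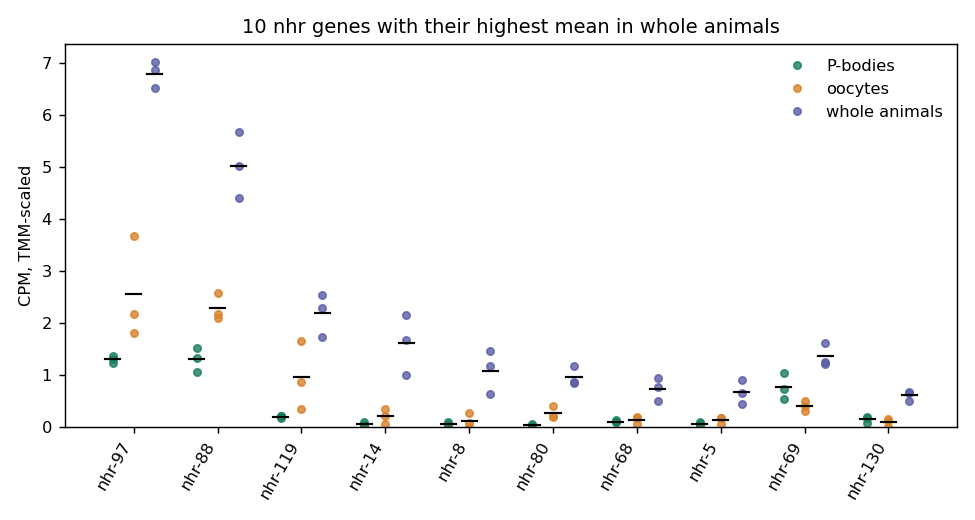
Level of 10 nhr genes whose highest mean was in whole animals, in CPM after TMM scaling on a linear axis. Points are libraries and black lines means of 3, with P-bodies left, oocytes in the middle and whole animals right. nhr-97 and nhr-88 are lowest in P-bodies, intermediate in oocytes and highest in whole animals, and nhr-69 and nhr-130 are lowest in oocytes.

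Against whole animals, 16 of the 107 tested members rose in P-bodies and 23 fell, beside 27.9% of all tested genes higher, 38.9% lower and 66.8% either way. The median log2 fold change was -0.18 for the members and -0.18 for all genes. Scaled by library totals alone, 89 members were higher and 2 lower, beside 76.6 and 9.73% of all genes, and with totals that leave out ribosomal RNA 20 were higher and 12 lower of 76, beside 36.1 and 37.0%. Leaving out P-bodies 1, P-bodies 2 or P-bodies 3 left 14, 14 or 15 members lower. This comparison shares its P-body libraries with the first comparison and its whole-animal libraries with the second, so its calls are no separate evidence. By mean CPM, 45 of the 107 tested members had their highest mean in P-bodies, 6 had it in oocytes and 56 had it in whole animals, beside 40.3, 23.1 and 36.5% of all tested genes. The filter let in 33 of the 107 only through P-bodies, 4 only through whole animals and 0 only through oocytes. These numbers therefore partly restate the filter, whose matching share is not given here for all tested genes.

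10 members named above as higher than in oocytes were also higher than in whole animals: nhr-2, nhr-12, nhr-20, nhr-23, nhr-40, nhr-66, nhr-86, nhr-138, nhr-154 and nhr-256. nhr-7 was the eleventh of the 16 and lost its call without P-bodies 1, P-bodies 2, P-bodies 3, whole animals 1 or whole animals 3 (highest adjusted p = 0.146). As given above, it had passed the filter through P-bodies. The other 5 were low: nhr-60, nhr-94, nhr-161, nhr-237 and nhr-286. No whole-animal library of nhr-60, nhr-94 or nhr-237 reached the filter, which they passed through P-bodies, where they were called higher. nhr-161 reached it in 3 P-body libraries, 2 oocyte libraries and 1 whole-animal library. Only P-bodies, where nhr-161 was called higher, thus had all libraries above the filter. nhr-161 and nhr-237 lost their calls without whole animals 3 (adjusted p = 0.054 and 0.0543), and nhr-286 without any 1 of the libraries but whole animals 1 (highest adjusted p = 0.129). nhr-94 had 61, 72 and 61 counts in P-bodies and 0 counts in all whole-animal libraries. Set against the limit of 3 counts over that group, it was at least 5.28-fold higher in P-bodies. nhr-60, which acts in the seam cells of the epidermis, had 0.19, 0.367 and 0.219 CPM in P-bodies, against 0.0476, 0 and 0.0345 CPM in whole animals. The P-body libraries were all higher. Its rise (log2 fold change 3.11 ± 1.15, adjusted p = 0.0299) was lost without P-bodies 2, P-bodies 3 or any 1 whole-animal library (highest adjusted p = 0.0945), and its neighbour on the other strand, F57A10.4, averaged 3.56 CPM in P-bodies, against 1.28 CPM in whole animals.

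The 23 that fell included several receptors with known metabolic roles. nhr-8, which acts in cholesterol balance and in resistance to toxins, had 0.0596, 0.00334 and 0.0869 CPM in P-bodies, 0.259, 0 and 0.0789 CPM in oocytes, and 0.619, 1.45 and 1.17 CPM in whole animals. Whole-animal libraries were all above the other 6, and nhr-8 fell in P-bodies (log2 fold change -4.41 ± 1.01, adjusted p = 0.00186), with a value against oocytes of -1.14 ± 1.09 that did not pass (adjusted p = 0.392). nhr-14 fell furthest but for nhr-80, at -5.07 ± 0.79 (adjusted p = 9.72e-05), and nhr-68 fell at -2.90 ± 0.62 (adjusted p = 0.00116). nhr-5, nhr-8, nhr-14 and nhr-80 are the 4 members for which only whole animals had all libraries above the filter on low counts. Whole animals were also the group in which these 4 were high, so their falls are not separate from the filter. F33D4.6, which overlaps nhr-8 on the other strand, averaged 0.117 CPM in P-bodies, against 0.235 CPM in whole animals. By library totals alone, nhr-8 and nhr-14 remained negative (-1.25 and -1.89), and nhr-68 stood at 0.27. With that scaling nhr-8 and nhr-68 were not called (adjusted p = 0.207 and 0.702).

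nhr-97 fell to the levels given above (log2 fold change -2.38 ± 0.25, adjusted p = 3.36e-06), as did nhr-88 (log2 fold change -1.95 ± 0.23, adjusted p = 9.15e-06) and nhr-119 (log2 fold change -3.51 ± 0.51, adjusted p = 5.86e-05). nhr-49 stood at -0.68 ± 0.10 (adjusted p = 8.54e-05), and nhr-5 at -3.59 ± 0.69 (adjusted p = 4.97e-04). With library totals alone nhr-97, nhr-88 and nhr-49 were higher in P-bodies (0.80, 1.23 and 2.51). nhr-119 and nhr-5 stood at -0.33 and -0.43 there and were not called (adjusted p = 0.566 and 0.575). nhr-1, nhr-41 and nhr-274 passed only with all libraries in the fit, at -0.73 ± 0.28, -1.45 ± 0.59 and -0.36 ± 0.15, and lost their calls without any 1 of the 6 libraries compared (highest adjusted p = 0.137, 0.148 and 0.154). nhr-10 lost its call without any 1 of P-bodies 1, P-bodies 2, P-bodies 3, whole animals 2 or whole animals 3 (highest adjusted p = 0.122). With no filter, nhr-1, nhr-41, nhr-274 and nhr-10 were not called (adjusted p = 0.331, 0.109, 0.684 and 0.122), and DESeq2 did not call nhr-274 (adjusted p = 0.0753). Under library totals alone, nhr-1, nhr-41, nhr-274 and nhr-10 were higher in P-bodies (2.46, 1.73, 2.82 and 2.31). A further 8 low members fell between -1.25 and -2.95: nhr-70, nhr-79, nhr-87, nhr-90, nhr-130, nhr-136, nhr-143 and nhr-212. Of these, nhr-70 and nhr-90 kept their calls with any 1 library left out, with no filter nhr-70, nhr-87, nhr-136 and nhr-143 were not called (adjusted p = 0.0675, 0.0657, 0.0915 and 0.0707), and all 8 were above 0 with library totals alone. nhr-136 overlaps lhpp-1 on the other strand, which averaged 2.05 CPM in P-bodies, against 0.685 CPM in whole animals. The summed intestinal markers were lower in all P-body libraries, with 13 of 14 called lower beside 38.9% of all tested genes. The part of these markers in the nhr values was not tested.

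Grouped by role, the 9 tested of 11 conserved receptors gave 1 rise (nhr-23) and 0 falls in P-bodies against oocytes, with a median log2 fold change of 0.35. Against whole animals, 1 rose and 4 fell (nhr-8, nhr-41, nhr-85 and nhr-91) with a median of -1.26. Of all tested genes, 26.7% were higher and 28.8% lower in P-bodies against oocytes, and 27.9 and 38.9% against whole animals. nhr-85, a Rev-erb relative in the larval timing pathway, had 0.13, 0.0434 and 0.125 CPM in P-bodies, 0.475, 0.0498 and 0.237 CPM in oocytes, and 0.428, 0.556 and 0.38 CPM in whole animals. nhr-91, a relative of the germ cell nuclear factor of vertebrates, had 0.0559, 0.0468 and 0.068 CPM in P-bodies, 0.0864, 0.0498 and 0.0987 CPM in oocytes, and 0.143, 0.167 and 0.242 CPM in whole animals. Whole-animal libraries of both lay above all P-body libraries, at log2 fold changes of -2.17 ± 0.75 and -1.70 ± 0.68. The call of nhr-85 was lost without P-bodies 2 or whole animals 2 (highest adjusted p = 0.076), and that of nhr-91 without any 1 of the 6 libraries (highest adjusted p = 0.189). With no filter neither was called (adjusted p = 0.0539 for nhr-85 and 0.294 for nhr-91), and DESeq2 did not call nhr-91 (adjusted p = 0.0603). Scaled by library totals alone, nhr-85 and nhr-91 stood at 0.99 and 1.44, and the medians of the 9 were 2.86 against oocytes and 1.90 against whole animals. nhr-6, the NR4A orthologue needed in the spermatheca, had 1.31, 1.75 and 1.17 CPM in P-bodies, 0.691, 0.448 and 0.947 CPM in oocytes, and 1.09, 0.556 and 0.932 CPM in whole animals, with the P-body libraries highest and no call (log2 fold change 0.98 ± 0.40, adjusted p = 0.0542 against oocytes).

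nhr-25, the Ftz-F1 orthologue of moulting and gonad development, was near the limit with 28, 48 and 32 counts in P-bodies, against 0, 6 and 1 in oocytes and 8, 0 and 1 in whole animals. nhr-64, an HNF4-like receptor, did not pass in any comparison, with -1.26 ± 0.66 in P-bodies against whole animals (adjusted p = 0.111). nhr-67, the tailless orthologue that specifies the anchor cell, had 3 counts over all 9 libraries. nhr-111 also had 3, all in oocytes 2. Neither could be tested at this depth. nhr-6, nhr-64, nhr-85 and nhr-91 each overlap a gene on the other strand, C48D5.3, C45E1.5, npr-14 and glb-28, none of which averaged above 0.0463 CPM in any group.

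The 11 tested of 12 metabolic and stress receptors gave 3 rises (nhr-62, nhr-66 and nhr-86) and 4 falls (nhr-10, nhr-14, nhr-49 and nhr-80) in P-bodies against oocytes, with a median of -0.52. Oocytes against whole animals gave 0 rises and 2 falls (nhr-14 and nhr-68), with a median of -0.60. The twelfth, nhr-114, which protects the germline from dietary metabolites, had 25, 8 and 6 counts in P-bodies, against 0, 0 and 0 in oocytes and 2, 5 and 4 in whole animals, and was not tested. nhr-57, which is induced by low oxygen, did not pass in any comparison and stood at 0.35 ± 0.58 in P-bodies against oocytes (adjusted p = 0.638). Its exons overlap those of lgc-1 on the same strand, which averaged 0.00374 CPM in P-bodies and 0 in oocytes. Of the 9 tested moulting and developmental receptors, 3 rose (nhr-2, nhr-23 and nhr-40) and 0 fell in P-bodies against oocytes, with a median of 0.98, and 4 rose and 3 fell against whole animals. Beside these groups of receptors, 26.7% of all tested genes were higher and 28.8% lower in P-bodies against oocytes. The shares were 0.709 and 12.5% in oocytes against whole animals, and 27.9 and 38.9% in P-bodies against whole animals. By library totals alone, the medians in P-bodies against oocytes were 1.99 for the metabolic and 3.48 for the developmental receptors.

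Receptors that bear other names were read beside the family. sex-1, the X-linked receptor that helps count X chromosomes by repressing xol-1, had 20.1, 24 and 19.3 CPM in P-bodies, against 6.83, 3.38 and 4.14 CPM in oocytes. Its P-body libraries were the higher ones without overlap, and it rose (2.15 ± 0.23, log2 and SE; adjusted p = 6.28e-06). daf-12, the receptor of dafachronic acid, had 0.142, 0.00668 and 0.0944 CPM in P-bodies, against 0.562, 0.199 and 0.513 CPM in oocytes. It fell in P-bodies against oocytes (-2.41 ± 0.78, adjusted p = 0.0192), with a value of 0.10 with library totals alone. The other 3 of the 5 (unc-55, fax-1 and odr-7) did not pass the filter.

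Among 6 genes of ligand synthesis, 3 were tested. daf-36, the oxygenase of the first step from cholesterol to dafachronic acid, fell in oocytes against whole animals (-3.83 ± 0.74, adjusted p = 0.0044) and in P-bodies against whole animals (-5.60 ± 0.72, adjusted p = 1.90e-05). daf-9, the cytochrome P450 that completes this ligand, was at 0 in P-bodies and oocytes. It had only 0, 0 and 1 counts in whole animals and was not tested. emb-8, the reductase that supplies cytochrome P450 enzymes with electrons, fell in P-bodies against oocytes (-0.45 ± 0.12, adjusted p = 0.00488), but was at 2.05 with library totals alone.

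All 20 coregulator and Mediator genes were tested, with 8 higher and 6 lower in P-bodies against oocytes by edgeR. Over all tested genes 26.7% were higher and 28.8% lower. Mediator is the complex through which such receptors reach RNA polymerase. Its subunit gene mdt-22 rose (1.45 ± 0.21, adjusted p = 6.11e-05), as did cic-1, which encodes cyclin C of its kinase module (0.98 ± 0.19, adjusted p = 8.80e-04). mdt-15, whose product binds NHR-49 and which was picked out after its values were seen, had 66.1, 57.2 and 72.7 CPM in P-bodies, against 39.2, 44.3 and 39.5 CPM in oocytes. It also rose (0.67 ± 0.11, adjusted p = 2.53e-04), while nhr-49 fell. din-1, the corepressor of DAF-12, had 21.7, 25.2 and 21.9 CPM in P-bodies, against 73.6, 80.7 and 54.7 CPM in oocytes and fell (-1.60 ± 0.14, adjusted p = 9.55e-07). With library totals alone all 20 were called higher and 0 lower, beside 79.6 and 3.35% of all genes.

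Of 13 reported receptor targets 11 were tested, and 1 rose and 4 fell in P-bodies against oocytes, 0 rose and 5 fell in oocytes against whole animals, and 0 rose and 10 fell in P-bodies against whole animals. Of all tested genes 26.7, 0.709 and 27.9% were higher and 28.8, 12.5 and 38.9% lower, in that order. The medians of the 11 targets were -1.48, -2.49 and -3.62 on the log2 scale, beside -0.06, 0.00 and -0.18 for all genes. In P-bodies against oocytes pccb-1, a subunit of propionyl-CoA carboxylase, had 6.23, 5.72 and 4.49 CPM in P-bodies, against 35, 35 and 29.6 CPM in oocytes. All its P-body libraries were lower, and it fell (-2.60 ± 0.15, adjusted p = 2.84e-08). gst-4, a glutathione transferase of the stress response, fell in oocytes against whole animals (-2.21 ± 0.49, adjusted p = 0.01). fat-6, a stearoyl-CoA desaturase controlled by nhr-49 and nhr-80, had 5.79, 1.09 and 1.52 CPM in oocytes, against 29, 33 and 35.3 CPM in whole animals. It fell (-3.57 ± 0.56, adjusted p = 0.0066), as did acdh-1, the first enzyme of the propionate shunt (-5.42 ± 0.88, adjusted p = 0.00473). Under library totals alone, the medians of the 11 were 1.03, -1.81 and -0.43, so that the direction in P-bodies against oocytes turned. The intestinal markers moved in the same direction in all 3 comparisons, and their part was not tested.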

How the data were processed

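The authors deposited raw counts per gene for 9 libraries and a StringTie table of TPM and FPKM values and of coverage per gene, of which FPKM and coverage were not used. Per the submitters' processing notes, reads were handled with HISAT2 2.1.0, StringTie, HTSeq and DESeq2 on WBcel235. Per the labels' protocols, RNA was taken with a kit for fixed tissue, 10 ng entered a stranded total RNA kit, and P-body samples alone skipped the spin that clears cell debris. How strand was treated in the counting is not given in the sources used here.

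Members and gene lists were chosen with earlier results of these data known. Counts were fitted with edgeR 4.0.16 in R 4.3.3 (TMM factors, filterByExpr by group with a minimum count of 10 and a total of 15, robust quasi-likelihood test) over all 9 libraries and 10162 genes, with Benjamini-Hochberg adjustment and a threshold of 0.05. The script was tested on simulated data. Alternatives were DESeq2 1.42.0, limma 3.58.1 on log2(TPM + 1) and log2(TPM + 0.1), other scalings and filters, a replicate block, the 2 compared groups alone, a 2-fold minimum and each library left out. Positions and biotypes came from the Ensembl annotation of that build.

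Library totals were 27946955 to 78685226 counts, and intervals and limits cover counting error only. Members named were, for each comparison and direction, up to 10 called members with the largest fold change, 2 CPM or more on average in the higher group and libraries that did not overlap, the 8 with the highest mean TPM in each group, and a preset list of well studied receptors. Those outside this rule were named to complete a count, after their values were seen. No sequences are shown.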

Additional observations from a re-analysis of the deposited data

How the results depend on the processing

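The calls depended most on the scaling. Under library totals alone, log2(TPM + 1) and log2(TPM + 0.1), members called higher in P-bodies than in oocytes were 95, 95 and 97 and members called lower 0, 0 and 0, in place of 17 and 8. All genes were 8093, 7987 and 7969 higher and 340, 270 and 286 lower. In oocytes against whole animals, the same settings gave 22, 14 and 16 members higher and 7, 12 and 15 lower. All genes there were 5278, 4202 and 4315 higher and 1203, 1404 and 1391 lower. In P-bodies against whole animals they gave 89, 89 and 83 members higher and 2, 3 and 3 lower, and 7781, 7743 and 7611 genes higher beside 989, 1322 and 1156 lower. Totals without ribosomal RNA gave 2 members and 1069 genes higher in oocytes than in whole animals. They gave 12 members and 3305 genes lower in P-bodies than in whole animals.

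With no filter, 26 members rose in P-bodies against oocytes, 1 rose (with 320 genes) and 11 fell in oocytes against whole animals, and 25 rose and 36 fell in P-bodies against whole animals. All genes were 3224 higher in the first comparison, 1598 lower in the second, and 3448 higher and 5316 lower in the third. The stricter filter, 50 counts in 3 libraries, tests fewer genes and left 3 members and 723 genes lower, and 34 genes higher, in oocytes than in whole animals. It left 15 members and 2990 genes lower in P-bodies than in whole animals. DESeq2 called 14 members and 1528 genes lower and 363 genes higher in oocytes against whole animals. Fitting only the 2 groups compared gave 47 genes higher in oocytes than in whole animals. It gave 34 members and 3787 genes higher in P-bodies than in whole animals. At a change of at least 2-fold, 4 members fell in P-bodies against oocytes, 1524 genes rose and 1924 fell there, 7 genes rose in oocytes against whole animals and 1695 rose in P-bodies against whole animals. Apart from the filters and the 2-fold minimum, which act by their construction, the cause of these differences was not tested.

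Leaving out each library in turn gave 13 to 29 members higher and 6 to 9 lower in P-bodies against oocytes, 0 to 1 higher and 2 to 10 lower in oocytes against whole animals, and 12 to 16 higher and 14 to 19 lower in P-bodies against whole animals. For all genes the numbers were 2307 to 2946 and 2439 to 2857, 23 to 227 and 865 to 1436, and 2582 to 2696 and 3730 to 3825. Where this leaves 2 libraries in a group, the spread is shared over all groups. Samples that share a replicate number had correlations of their deviations of -0.11 to 0.14 over 9 pairs, beside -0.17 to 0.17 over 18 pairs with different numbers. In P-bodies against oocytes the 3 same-number pairs stood at 0.137, 0.0997 and 0.104, and each library correlated best with its own number, a hint from the data and not from the design. In neither other comparison were all 3 pairs above 0.1, nor were they here, so the numbers were not taken to pair the samples. With a replicate block 17 members rose and 7 fell in P-bodies against oocytes, 0 rose and 4 fell in oocytes against whole animals, and 16 rose and 18 fell in P-bodies against whole animals. All genes were 2654, 68 and 2795 higher and 2700, 1153 and 3855 lower, in that order. The block took the calls of nhr-14 and nhr-207 in P-bodies against oocytes (adjusted p = 0.0749 and 0.0643). nhr-68 and nhr-130 lost theirs in oocytes against whole animals (adjusted p = 0.0734 and 0.0753). In P-bodies against whole animals, nhr-1, nhr-7, nhr-41, nhr-87, nhr-91 and nhr-212 lost theirs (highest adjusted p = 0.0992).

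With all counts as the denominator the family took 0.111% in P-bodies, 0.0119% in oocytes and 0.00867% of whole-animal counts, and tested members alone took 0.0996% of the whole-animal counts outside ribosomal RNA.

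Fold changes of named members that were negative with TMM scaling and turned positive are as follows. With library totals alone they were, for P-bodies against oocytes, nhr-10 1.63, nhr-13 2.32, nhr-14 0.45, nhr-49 1.98, nhr-68 1.99, nhr-71 2.24, nhr-88 1.69, nhr-91 1.95, nhr-97 1.58, nhr-119 0.15 and nhr-274 2.21. With library totals alone they were, for oocytes against whole animals, nhr-48 0.67, nhr-49 0.53, nhr-66 0.67, nhr-86 0.62 and nhr-274 0.62. With library totals alone they were, for P-bodies against whole animals, nhr-1 2.46, nhr-10 2.31, nhr-13 2.99, nhr-25 3.07, nhr-41 1.73, nhr-49 2.51, nhr-57 2.92, nhr-64 1.90, nhr-68 0.27, nhr-85 0.99, nhr-88 1.23, nhr-91 1.44, nhr-97 0.80 and nhr-274 2.82. On log2(TPM + 1) they were, for P-bodies against oocytes, nhr-10 1.21, nhr-13 1.81, nhr-14 0.00376, nhr-49 1.70, nhr-68 0.62, nhr-71 1.89, nhr-88 0.97, nhr-97 1.02, nhr-119 0.0382 and nhr-274 2.05. On log2(TPM + 1) they were, for oocytes against whole animals, nhr-49 0.46, nhr-66 0.59 and nhr-86 0.52. On log2(TPM + 1) they were, for P-bodies against whole animals, nhr-1 1.71, nhr-10 1.59, nhr-13 2.26, nhr-25 0.41, nhr-41 0.61, nhr-49 2.16, nhr-57 1.43, nhr-64 0.82, nhr-68 0.000307, nhr-85 0.22, nhr-88 0.68, nhr-91 0.20, nhr-97 0.44 and nhr-274 2.39. On log2(TPM + 0.1) they were, for P-bodies against oocytes, nhr-8 1.5, nhr-10 1.51, nhr-13 2.13, nhr-49 1.76, nhr-68 2.35, nhr-71 2.04, nhr-88 1.39, nhr-97 1.35, nhr-119 0.16 and nhr-274 2.15. On log2(TPM + 0.1) they were, for oocytes against whole animals, nhr-48 0.62, nhr-49 0.50, nhr-66 0.63 and nhr-86 0.57. On log2(TPM + 0.1) they were, for P-bodies against whole animals, nhr-1 2.35, nhr-10 2.01, nhr-13 2.76, nhr-25 1.85, nhr-41 1.26, nhr-49 2.26, nhr-57 2.98, nhr-64 1.53, nhr-68 0.00199, nhr-85 0.56, nhr-88 0.92, nhr-91 0.98, nhr-97 0.54 and nhr-274 2.53.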

Other observations

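14 of the 281 genes are annotated as pseudogenes, and 9 of these had at least 1 count. nhr-194 was the only pseudogene that passed the filter, with a total of 67 counts over the 9 libraries, and nhr-151, which did not pass, had 51. Listed at 0 TPM in every library were 42 members with at least 1 raw count, so the choice of table decides whether they appear as detected. nhr-290 and nhr-291 carry those names in the newer annotation alone and stand in the deposited table as srt-58 and ZK1037.13, each with 0 counts in all 9 libraries. Of the 107 tested members, 25 overlap an exon of another protein-coding gene on either strand.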
